A study of Mus musculus with 2 samples.

Results

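Cdkn2b encodes p15INK4b, an inhibitor of the cyclin D-dependent kinases, and here cardiac fibroblasts in which RNA of this gene was detected were compared with cardiac fibroblasts in which it was not. The cells came from hearts of C57BL/6 p16-FDR mice aged 20 to 22 months. This strain carries a FLP recombinase and a diphtheria toxin receptor fused to the red fluorescent protein mCherry as a reporter of p16, and all cells profiled had been sorted by flow cytometry as mCherry positive. The labels give 2 samples in 1 group, with no mCherry-negative cells and no young hearts, so both sides of the comparison lie inside the sorted population. Droplet single-cell RNA sequencing from the 3′ end counted unique molecular identifiers (UMIs, roughly 1 per captured RNA molecule) in 15247 genes of 1426 cells. The prefix of a cell name gives its library, Heart1 or Heart2, and the libraries shared 0 cell barcodes.

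Members were chosen by measured values of these cells: fibroblasts were the cells in which the mean deposited value of Dcn, Col1a2, Lum and Col3a1 was at least 1.5 and exceeded the mean of the macrophage genes Lyz2, C1qa, C1qb and Fcer1g. This gave 1145 fibroblasts of 1426 cells, and 120 of those 1145 held at least 1 Cdkn2b UMI: 63 of 206 in Heart1 and 57 of 939 in Heart2. The values near the threshold were well apart, with the lowest fibroblast mean inside at 1.92 in Heart1 and 1.54 in Heart2 and the highest outside at 1.29 and 1.33. Fibroblast genes the rule did not use were detected in most of these cells, some of them less often than in the cells without Cdkn2b RNA. In the cells with Cdkn2b RNA that were kept after depth matching, the receptor gene Pdgfra had a UMI in 76.7% of cells of Heart1 and 81.8% of Heart2, against 88.3% and 96.7% of the matched cells without. The transcription factor gene Tcf21 was detected in 71.7% and 85.5%, against 80.8% and 96.4%, and Col1a1 in 100% and 98.2%, against 100% and 97.1%. The counting intervals of Pdgfra did not overlap in Heart2 (69.1 to 90.9% against 93.9 to 98.5%).

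INK4 proteins bind CDK4 and CDK6 and keep the retinoblastoma protein active, which holds a cell in G1. Cdkn2b lies beside Cdkn2a, whose transcripts encode p16INK4a and p19Arf, and it is best known as a gene induced by TGF-beta through SMAD proteins and repressed by MYC. Fibroblasts make and turn over the matrix of the heart, and both INK4 genes are widely used as marks of cellular senescence.

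The promoters of Cdkn2b, of its neighbour Cdkn2a and of Wif1 and Id4, the genes with the largest difference seen in both libraries, are shown because these RNAs were found together in the same fibroblasts. Each is the 250 bases before an annotated start (RefSeq, GRCm38.p6), 5′ to 3′ on the gene's strand. Capitals mark the GC box, searched as GGGCGG on both strands (CCGCCC on the strand shown).

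Cdkn2b (chr4:89311033-89311282, minus strand): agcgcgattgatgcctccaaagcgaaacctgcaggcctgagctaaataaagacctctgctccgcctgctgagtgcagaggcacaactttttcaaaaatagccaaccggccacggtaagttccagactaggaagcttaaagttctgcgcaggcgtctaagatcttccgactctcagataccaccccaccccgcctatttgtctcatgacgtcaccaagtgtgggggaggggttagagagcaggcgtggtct
Cdkn2a, upstream start (chr4:89294620-89294869, minus strand): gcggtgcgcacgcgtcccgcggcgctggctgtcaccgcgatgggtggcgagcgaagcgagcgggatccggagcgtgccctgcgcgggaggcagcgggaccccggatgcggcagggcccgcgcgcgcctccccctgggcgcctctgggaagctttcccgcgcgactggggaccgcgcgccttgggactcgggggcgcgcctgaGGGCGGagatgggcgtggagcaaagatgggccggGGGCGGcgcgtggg
Cdkn2a, downstream start (chr4:89282193-89282442, minus strand): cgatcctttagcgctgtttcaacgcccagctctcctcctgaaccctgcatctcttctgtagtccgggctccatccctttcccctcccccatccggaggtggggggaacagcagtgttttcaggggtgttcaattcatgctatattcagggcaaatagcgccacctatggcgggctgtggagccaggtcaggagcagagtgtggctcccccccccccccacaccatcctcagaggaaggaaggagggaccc
Wif1 (chr10:121033754-121034003, plus strand): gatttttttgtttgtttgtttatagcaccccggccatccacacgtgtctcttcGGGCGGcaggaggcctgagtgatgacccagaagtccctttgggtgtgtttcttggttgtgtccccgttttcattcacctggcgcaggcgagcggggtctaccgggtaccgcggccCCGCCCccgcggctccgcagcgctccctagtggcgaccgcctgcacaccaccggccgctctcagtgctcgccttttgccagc
Id4 (chr13:48260866-48261115, plus strand): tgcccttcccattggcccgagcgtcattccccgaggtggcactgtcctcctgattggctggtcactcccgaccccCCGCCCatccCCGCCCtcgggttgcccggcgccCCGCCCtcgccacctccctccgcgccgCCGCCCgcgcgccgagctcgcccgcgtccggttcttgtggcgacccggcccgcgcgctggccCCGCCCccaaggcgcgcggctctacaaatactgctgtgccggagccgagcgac

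The GC box occurred 0 times before Cdkn2b, 2 times before the upstream and 0 times before the downstream start of Cdkn2a, 2 times before Wif1 and 5 times before Id4, and 32.7% of 32851 promoter windows of the same length held it. GC content was 53.6% before Cdkn2b, 78.4% and 60% before the Cdkn2a starts, 62.8% before Wif1 and 75.6% before Id4. A match describes letters in these windows and shows no binding.

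Cdkn2b RNA was more often detected in the smaller library. It had a UMI in 30.6% of Heart1 fibroblasts (exact 95% interval 24.4 to 37.4%) and in 6.07% of Heart2 fibroblasts (4.63 to 7.79%), at median depths of 11882.5 and 8772 UMIs a cell. Thinned to 3000 UMIs a cell, the shares were 12.6% and 1.60%. Most positive cells sat at the detection limit, with exactly 1 Cdkn2b UMI in 36 of 63 cells in Heart1 and in 48 of 57 in Heart2, so a cell without a UMI may still have used the gene. Macrophages of the same sort (the mirror-image rule, at least 1.5 and above the fibroblast mean) had a Cdkn2b UMI in 16.2% of 37 cells in Heart1 and in 9.52% of 210 cells in Heart2, at median depths of 8133 and 9642 UMIs. In Heart2 the macrophage share was the higher of these shares, no cell class known to lack Cdkn2b was available, and the part of free RNA in the fibroblast share was not tested. The labels do not tie a library to an animal or say what else set the libraries apart, so the source of this difference cannot be told.

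Cells with Cdkn2b RNA were deeper than the rest (medians of 12606 against 11413 UMIs in Heart1 and 10787 against 8649 in Heart2), so each was matched by depth to fibroblasts without a Cdkn2b UMI of its own library. In Heart1, 60 cells with Cdkn2b RNA (median 12117 UMIs) were set against 120 without (12206.5). In Heart2, 55 cells (10513) were set against 275 (10496). The 5 cells left unmatched, 3 of Heart1 and 2 of Heart2, were among the deepest. Cdkn2b itself, which set the groups, had 124 UMIs in the kept Heart1 cells and 72 UMIs in the kept Heart2 cells. UMIs were summed over the cells of each side and library and scaled to a total of 1000000 UMIs (CPM). All differences are on the log2(CPM + 10) scale, which understates the change of low genes. Intervals on CPM and on shares are 95% and cover counting error only.

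At matched depth, fibroblasts with Cdkn2b RNA had more RNA of a small set led by the secreted Wnt inhibitor gene Wif1 and by Id4, which encodes a helix-loop-helix protein without a DNA-binding region. Of 6324 genes tested, 14 were at least 2-fold higher in both libraries (0.221%) and 2 at least 2-fold lower (0.0316%), 16 in all (0.253%), each with a UMI in at least 10% of cells of the higher side in each library. Within a library the counts were larger: 62 genes were higher and 32 lower in Heart1, and 81 higher and 24 lower in Heart2. No gene was 2-fold higher in Heart1 and 2-fold lower in Heart2, and 4 were the other way round. Across genes, which are not independent replicates, the differences of the 2 libraries correlated weakly (Pearson r = 0.259).

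**Figure D1:**
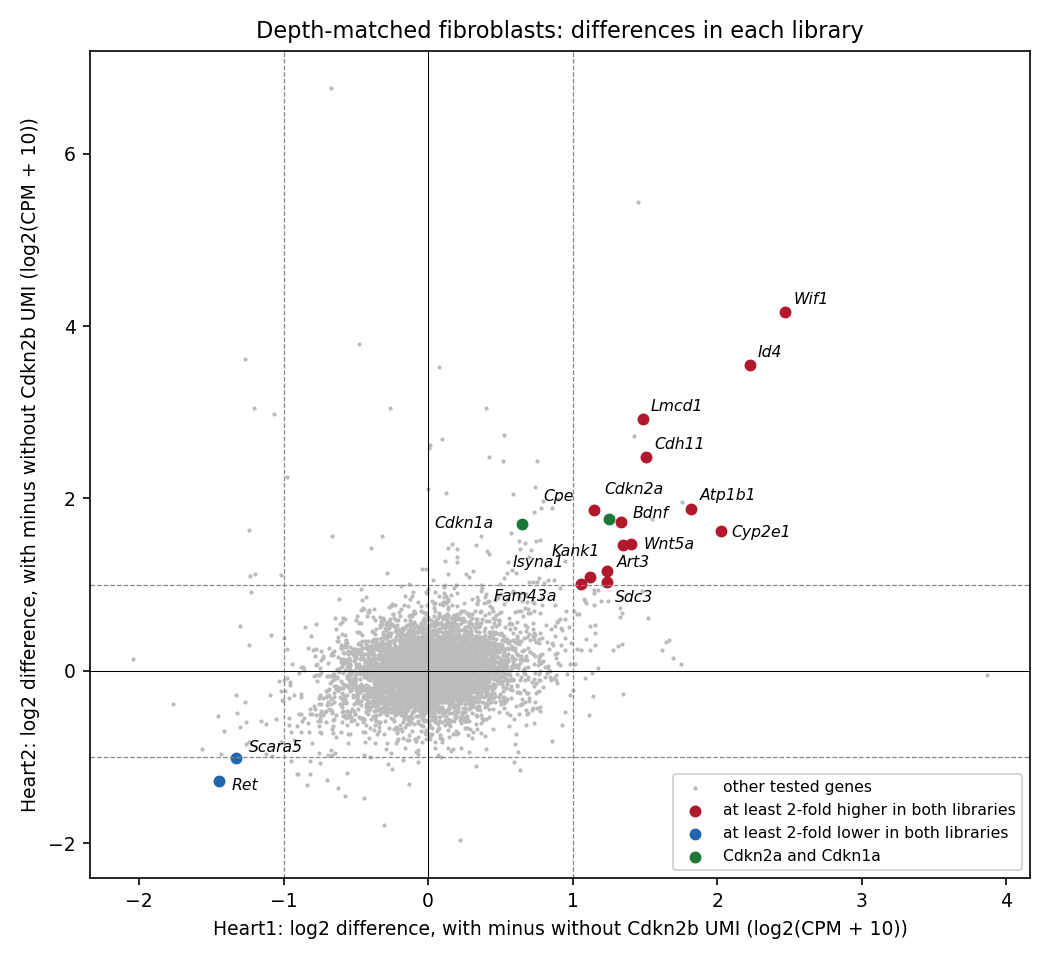
Each point is 1 of 6324 genes, placed by its log2 difference (cells with minus cells without a Cdkn2b UMI, on log2(CPM + 10)) in Heart1 on the x axis and Heart2 on the y axis. Dashed lines mark 2-fold. The 14 red genes lie beyond them at the upper right, Wif1 and Id4 farthest out, and the blue genes Ret and Scara5 at the lower left.

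Wif1 (chr10:121033960-121100650, plus strand, GRCm38) stood at 908 CPM in Heart1 cells with Cdkn2b RNA against 156 CPM in cells without, and at 175 CPM against 0.340 CPM in Heart2. It was detected in 43.3% against 9.17% of cells in Heart1 and in 14.5% against 0.364% in Heart2. The difference was 2.47 in Heart1 and 4.16 in Heart2. In Heart2 it rests on 105 UMIs in 8 cells against 1 UMI in 1 cell, a ratio of 514 with a counting interval of 90.3 to 20500. The summed level was higher with Cdkn2b RNA in each library, but across libraries the counting interval of the Heart2 cells with Cdkn2b RNA (143 to 211 CPM) overlapped that of the Heart1 cells without it (137 to 176 CPM). Cell by cell the sides overlapped too, since 34 of 60 Heart1 cells with Cdkn2b RNA held no Wif1 UMI and 11 of 120 without it did. Wif1 had a UMI in 0 of 37 macrophages of Heart1, which allows a share of up to 8.11%, and in 1 of 210 of Heart2.

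Id4 (chr13:48261228-48266026, plus strand) stood at 551 CPM against 110 CPM in Heart1 and at 175 CPM against 5.77 CPM in Heart2, differences of 2.23 and 3.55. It was detected in 51.7% against 17.5% and in 12.7% against 4.0% of cells. In Heart2, 78 of the 105 Id4 UMIs (74.3%) came from 1 cell, the cell with the most Cdkn2b UMIs (11). Without that cell and the other Heart2 cell richest in Cdkn2b, which was not in the matched set, the difference of Id4 in Heart2 was 1.82 and that of Wif1 was 3.61, and 10 genes remained at least 2-fold higher in both libraries.

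The other 12 genes of the set have varied roles. Among signalling and secretory genes, Wnt5a, a Wnt ligand that acts mostly outside the beta-catenin route, was at 83.0 against 25.1 CPM in Heart1 and at 66.5 against 17.7 CPM in Heart2. In Heart2, 21 of its 40 UMIs lay in 1 cell (52.5%), and the difference there was 0.60 without the cells richest in Cdkn2b. Bdnf, a neurotrophin gene, was at 97.4 against 32.7 and at 29.9 against 2.04 CPM. Cpe, whose product carboxypeptidase E trims prohormones, was at 180 against 76.0 and at 105 against 21.4 CPM. All of these levels were higher in the cells with Cdkn2b RNA of each library.

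Adhesion and surface genes were part of the set. Cdh11, a cadherin gene of mesenchymal cells, was at 61.4 against 15.1 CPM in Heart1 and at 79.8 against 6.11 CPM in Heart2, differences of 1.51 and 2.48. Sdc3, which encodes the proteoglycan syndecan-3, was at 228 against 91.1 and at 116 against 51.6 CPM. Atp1b1, a subunit of the sodium pump, was at 114 against 25.1 and at 63.2 against 9.85 CPM, with nearly equal differences of 1.82 and 1.88. Art3, of the ADP-ribosyltransferase family, differed by 1.24 and 1.16.

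The remaining genes act inside the cell. Lmcd1, which encodes a LIM-domain protein, was at 178 against 57.2 CPM in Heart1 and at 91.4 against 3.40 CPM in Heart2, differences of 1.48 and 2.92. Cyp2e1, a cytochrome P450 gene, was at 81.8 against 12.6 and at 56.5 against 11.6 CPM. Kank1, which encodes an adaptor of focal adhesions, differed by 1.35 and 1.46, Isyna1, of inositol synthesis, by 1.12 and 1.09, and Fam43a by 1.06 and 1.01. The last pair sat just past the threshold.

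The genes lower with Cdkn2b RNA were Ret, a receptor tyrosine kinase gene, and Scara5, a scavenger receptor gene for ferritin. Scara5 was at 30.1 CPM in Heart1 cells with Cdkn2b RNA against 90.5 CPM without, and at 125 against 261 CPM in Heart2, differences of -1.33 and -1.01. Ret was at 2.41 against 23.9 CPM in Heart1, from 2 UMIs against 38 (ratio of the level without to the level with Cdkn2b RNA 9.93, counting interval 2.57 to 84.9), and at 13.3 against 46.5 CPM in Heart2. For Scara5 the levels of the groups overlapped across libraries, since Heart2 cells with Cdkn2b RNA were above Heart1 cells without it.

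**Figure D2:**
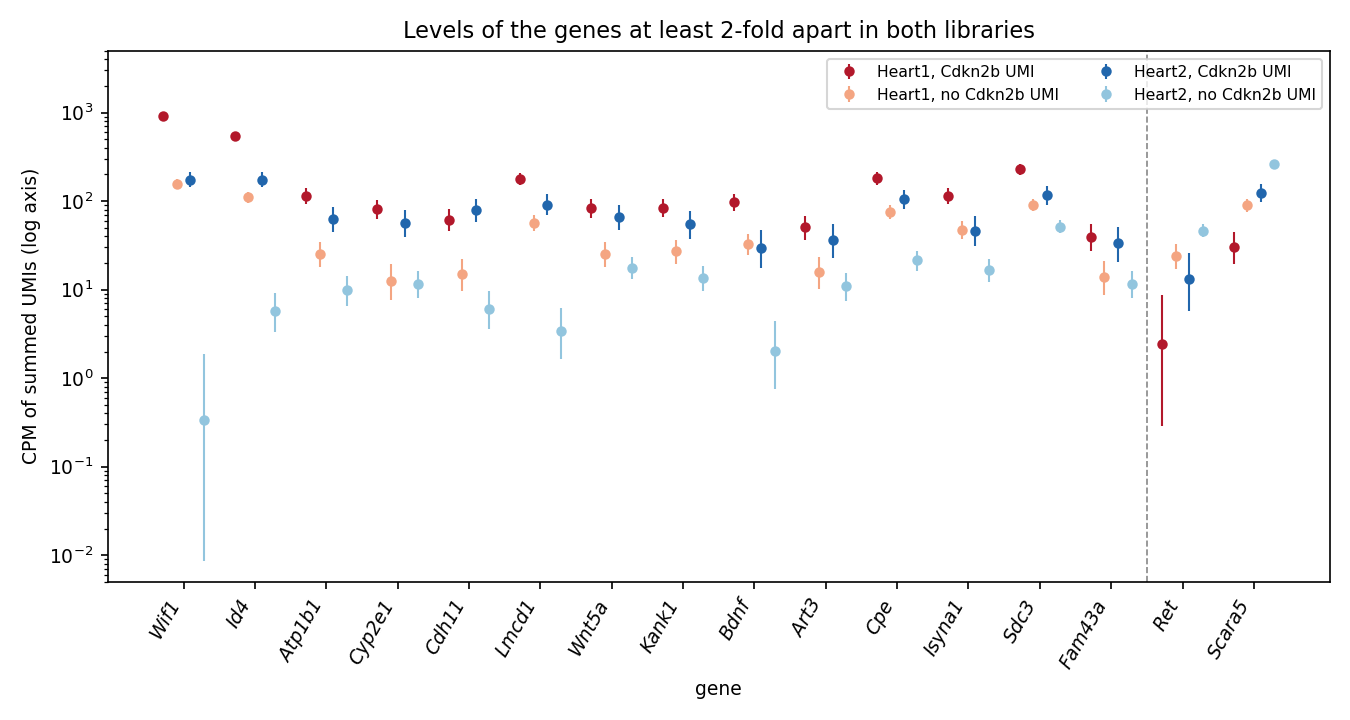
Levels in CPM (log axis) of the 14 genes at least 2-fold higher and, right of the dashed line, the 2 genes at least 2-fold lower in both libraries, in the 4 sums (60 and 120 cells of Heart1, 55 and 275 of Heart2). Bars are exact 95% Poisson intervals, which cover counting error only. Darker points (cells with Cdkn2b RNA) lie above the lighter point of their library for all 14 genes, and the widest gap is that of Wif1 in Heart2 (175 against 0.340 CPM).

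A limma fit over the 4 sums, with library as a block and Benjamini-Hochberg adjustment over all genes tested, called 134 genes higher (2.12%) and 85 lower (1.34%) in cells with Cdkn2b RNA, 219 in all (3.46%). All 16 genes above passed, but they had been picked for their differences in the same 4 sums, so their passing is no separate evidence. Limma log2 differences (± SE) were 3.31 ± 0.24 for Wif1 (adjusted p = 4.77e-08), 2.89 ± 0.21 for Id4 (4.77e-08) and -1.17 ± 0.16 for Scara5 (0.00013). The fit has 1 residual degree of freedom and borrows the rest of its spread from other genes. It called 0 genes without the library block (202 genes at an unadjusted p under 0.05) and 0 among genes of at least 50 CPM (342 genes). The replicates are 2 libraries, which the labels do not tie to separate animals, so p-values measure a spread that may be technical.

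Among the other cell cycle inhibitor genes, Cdkn2a and Cdkn1a rose with Cdkn2b, and the other 4 did not pass the test. Cdkn2a RNA, whose 3′ counts do not separate p16INK4a from p19Arf transcripts, was at 153 CPM against 58.4 CPM in Heart1 and at 24.9 CPM against 0.340 CPM in Heart2 (limma log2 difference 1.5 ± 0.21, adjusted p = 0.000133). In Heart1 it was detected in 58.3% of cells with Cdkn2b RNA (44.9 to 70.9%) and in 29.2% of cells without (21.2 to 38.2%). In Heart2 it was detected in 4 of 55 cells against 1 of 275, which is under the 10% of cells asked for above, and 9 of its 15 UMIs lay in 1 cell. The Heart2 ratio of 73.4 has a counting interval of 11.3 to 3090. With cells thinned to 5000 UMIs Cdkn2a differed by 1.61 and -0.16 in Heart1 and Heart2 and no longer passed in limma (adjusted p = 0.764). The thinned Heart2 value rests on 0 UMIs against 5. Cells that lost every Cdkn2b UMI by thinning counted there as cells without, which left 29 cells with Cdkn2b RNA in each library. All cells had been sorted with a reporter of p16, and Cdkn2a RNA was still found in only 34.95% of Heart1 and 0.746% of Heart2 fibroblasts, against 43.2% and 27.1% of macrophages.

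Cdkn1a, which encodes p21, was at 301 against 188 CPM in Heart1 and at 442 against 129 CPM in Heart2 (1.18 ± 0.18, adjusted p = 0.00032). With 1 matched cell without Cdkn2b RNA for each cell with it, the Cdkn1a differences were smaller, at 0.39 and 0.66 (limma 0.53, adjusted p = 0.0281). The share of cells with a Cdkn1a UMI was 58.3% against 43.3% in Heart1, and 36.4% against 32.7% in Heart2, where the intervals overlapped, so in Heart2 the higher level came with more UMIs per positive cell. Cdkn2c, which encodes p18INK4c, stood at 86.6 against 89.9 CPM in Heart1 and at 86.4 against 89.7 CPM in Heart2 (adjusted p = 0.962). Cdkn2d, Cdkn1b and Cdkn1c had limma log2 differences of -0.17 ± 0.23, -0.36 ± 0.18 and -0.37 ± 0.17, with adjusted p of 0.898, 0.478 and 0.43. Mtap, which lies on the same side of Cdkn2b as Cdkn2a on chromosome 4 and beyond it, differed by 0.35 and 0.31 (adjusted p = 0.593).

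**Figure D3:**
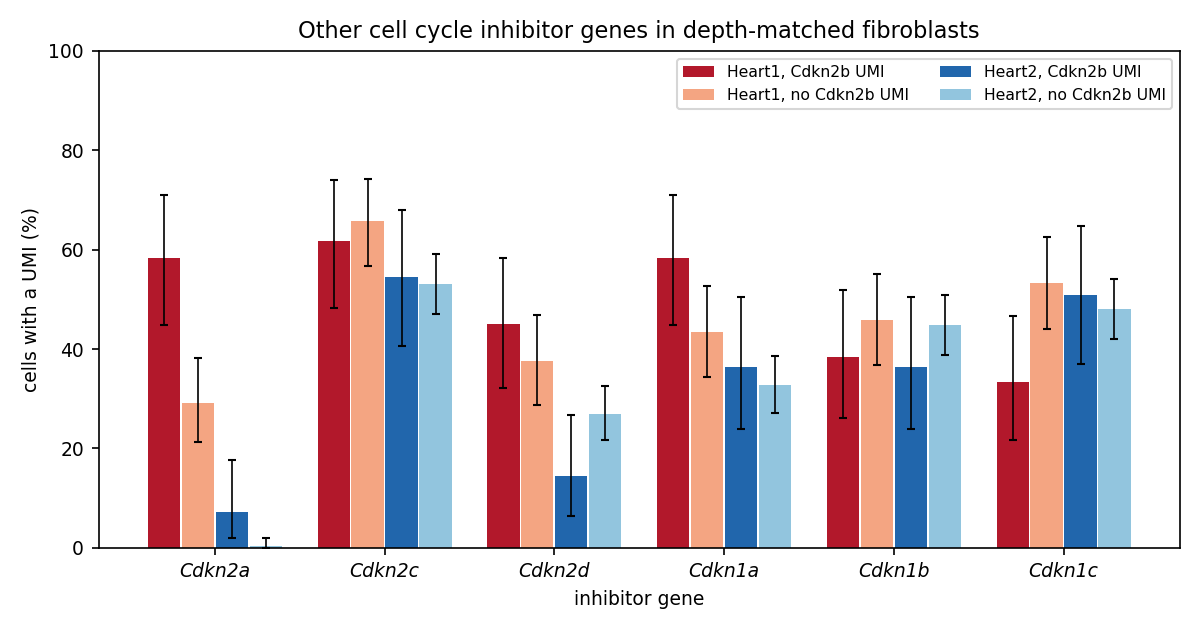
Share of depth-matched fibroblasts with a UMI of each other INK4 and CIP/KIP gene (bars, percent of cells) with exact 95% intervals, by library and Cdkn2b status. The Cdkn2a bars stand at 58.3% against 29.2% in Heart1 and at 7.27% against 0.364% in Heart2, the Cdkn2d bars in Heart2 run the other way (14.5% against 26.9%), and those of Cdkn2c are nearly level.

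Cells with more Cdkn2b UMIs more often held Wif1. In Heart1, 9.09% of fibroblasts without a Cdkn2b UMI, 30.6% of those with 1 and 55.6% of those with 2 or more had a Wif1 UMI, and in Heart2 the shares were 0.227%, 12.5% and 22.2%, the last over 9 cells. For Cdkn2a the Heart1 shares were 25.9%, 41.7% and 74.1%. These cells were not matched: median depth was 11413, 13111 and 12271 UMIs in Heart1 and 8649, 10052 and 17201 in Heart2. Read the other way, 26 of 39 Wif1-positive fibroblasts of Heart1 (66.7%) and 8 of 10 of Heart2 (80%) held Cdkn2b RNA, against 22.2% and 5.27% of Wif1-negative ones. Thinned to 5000 UMIs a cell, these shares were 44.1% against 8.43% in Heart1 and 22.2% (2 of 9 cells) against 3.18% in Heart2.

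The cells with Cdkn2b RNA were unevenly spread over kinds of fibroblast. Fibroblasts were clustered without Cdkn2b, the 8 class genes and every listed gene, Wif1 included, into 6 sub-clusters, called here by number and leading genes. Sub-cluster 5, led by Wif1, Id4, Clu, S100b and Cyp2e1, had the highest share in each library: 30 of 55 cells held Cdkn2b RNA in Heart1 (54.5%, interval 40.6 to 68.0%) and 11 of 34 in Heart2 (32.4%, 17.4 to 50.5%). Sub-cluster 1, led by Thbs4, Ltbp2 and Postn, followed in Heart2 with 16.0% and stood at 28.4% in Heart1, beside 30.3% in sub-cluster 4, led by Fhl2 and Adamtsl2. Sub-clusters 2 (Inmt, Fst) and 3 (Blnk, Ifitm1) had under 6% in both libraries, and sub-cluster 6 (Ly6c1, Cd248) 0 of 4 cells in Heart1 and 4.03% in Heart2. The intervals of sub-cluster 5 overlapped those of sub-cluster 4 and of the 4 cells of sub-cluster 6 in Heart1. In Heart2 they overlapped those of sub-cluster 1 (8.83 to 25.9%), and no test was made between clusters. These shares were not at equal depth. Median UMIs ran from 7570.5 (sub-cluster 6) to 14664 (sub-cluster 1) in Heart1, with 11693 in sub-cluster 5. In Heart2 they ran from 7616.5 (sub-cluster 3) to 11897 (sub-cluster 1), with 9076 in sub-cluster 5.

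**Figure D4:**
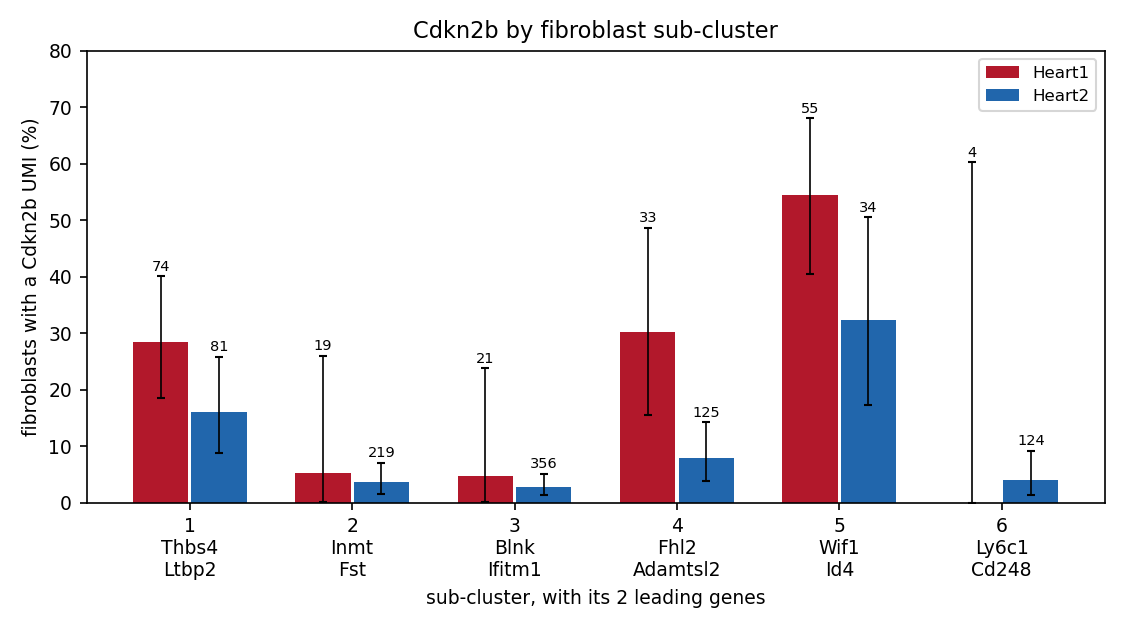
Share of fibroblasts with a Cdkn2b UMI (bars, percent) in each of 6 sub-clusters by library, with exact 95% intervals and the number of cells above each. Sub-cluster 5 has the highest bar in both libraries, 54.5% and 32.4%, and sub-clusters 2 and 3 are below 6% in both.

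Both sides of the comparison differed in their share of sub-cluster 5, whose part in the result was not tested. Of the 14 genes only Wif1 was left out of the clustering, so the choices of cells below rest partly on the called genes. Matched cells with Cdkn2b RNA numbered 34 in Heart1 and 47 in Heart2 without Wif1-positive cells, and 31 and 44 without sub-cluster 5. Of the matched cells, 48.3% with Cdkn2b RNA against 17.5% without lay in sub-cluster 5 in Heart1, and 20.0% against 3.27% in Heart2. Of the 10 leading genes of that sub-cluster, Wif1, Id4, Cyp2e1, Cpe, Atp1b1 and Lmcd1 are among the 14. Without cells holding a Wif1 UMI, 9 of the 14 genes were high enough to test and 0 of these remained at least 2-fold higher in both libraries (Wif1, Atp1b1, Cyp2e1, Art3 and Fam43a were too low). Without sub-cluster 5, 8 were high enough and 1 of these remained (Lmcd1, by 1.13 and 2.43), with Id4 also too low, and the correlation of the libraries across genes was -0.002. These choices of cells were added after seeing the data. Of the 14 genes, 7 lay above 0 in both libraries without Wif1-positive cells, and 6 without sub-cluster 5. Without Wif1-positive cells, Id4 differed by 3.05 in Heart1 and by -0.38 in Heart2, from 1 UMI against 14 there. In Heart1, Cpe (1.96), Kank1 (1.67), Wnt5a (1.65) and Cdh11 (1.61) also differed by more than with these cells kept in. Lmcd1 (0.86), Bdnf (0.89), Isyna1 (0.83) and Sdc3 (0.46) differed by less. In Heart2 each of the 9 genes differed by less.

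Matching inside the sub-clusters gave smaller differences for most of the set. When cells were matched on depth inside each sub-cluster (52 and 56 pairs), 3 of the 14 genes, which had been chosen on nearly the same cells with Cdkn2b RNA, stayed at least 2-fold higher in both libraries: Wif1 (1.07 and 3.74), Id4 (1.20 and 2.76) and Cdh11 (1.16 and 1.84). Inside sub-cluster 5 itself, not matched on depth, Wif1 was at 1900 CPM in 30 cells with Cdkn2b RNA and 847 CPM in 25 cells without in Heart1, and at 891 CPM in 11 cells and 5.05 CPM in 23 cells in Heart2. Scara5 had 0 UMIs in sub-cluster 5 on either side. Without sub-cluster 5, Cdkn1a differed by 0.79 and 1.76 and Cdkn2a by 0.35 and 0.44. Without Wif1-positive cells, Cdkn1a differed by 1.0 and 1.72. The 3 genes at least 2-fold higher in both libraries without Wif1-positive cells were Ass1, of arginine synthesis, Spp1 and Cdkn1a, and the 4 without sub-cluster 5 were Ass1, Bmp2, Spp1 and Lmcd1.

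**Figure D5:**
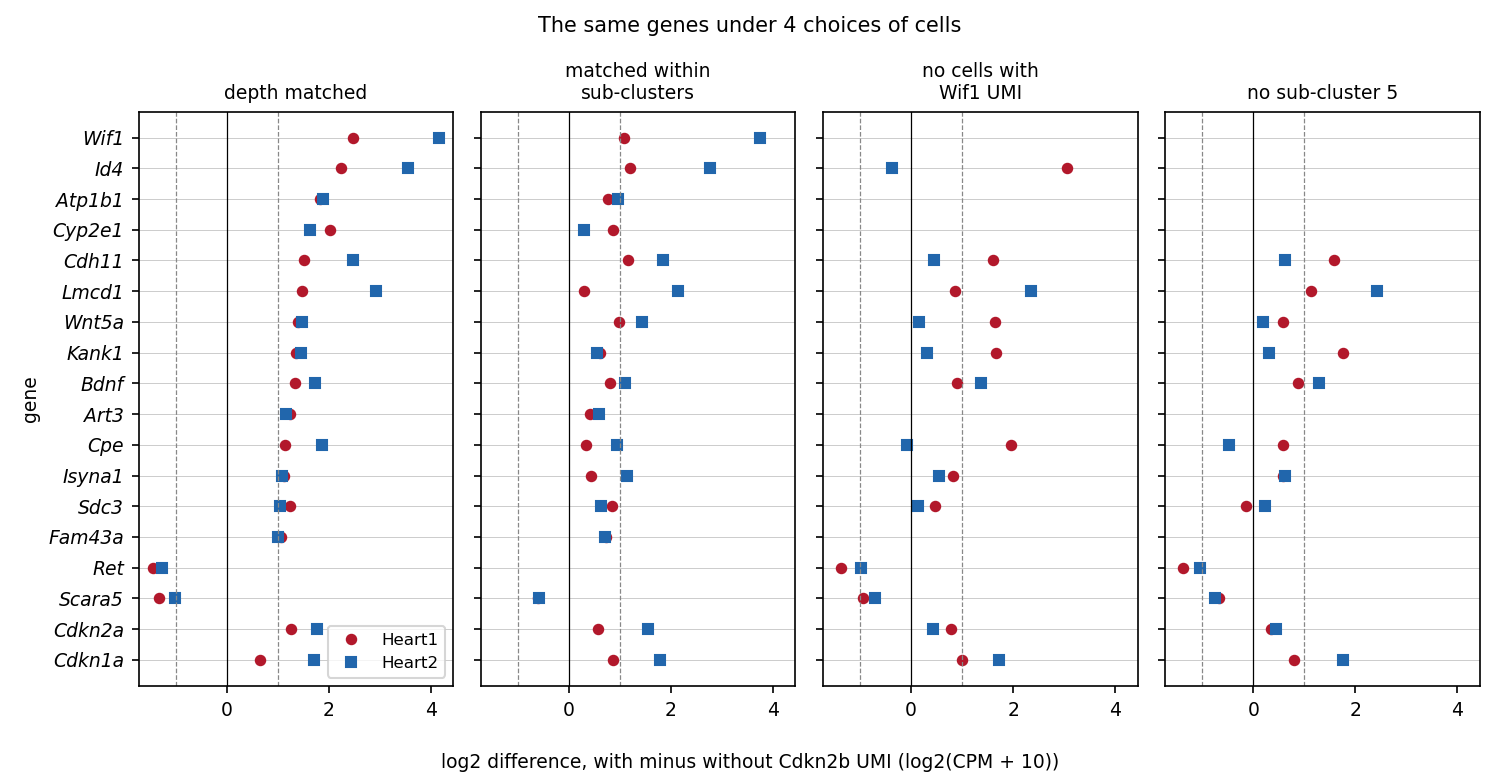
Log2 difference (with minus without a Cdkn2b UMI, x axis) of the 16 genes, Cdkn2a and Cdkn1a in Heart1 (circles) and Heart2 (squares) for 4 choices of cells. A missing pair means a mean under 20 CPM with that choice. The genes of the 14 that are still tested move toward 0 in at least 1 library when Wif1-positive cells or sub-cluster 5 are left out, while Cdkn1a lies between 0.65 and 1.0 in Heart1 and between 1.70 and 1.78 in Heart2 over these 4 choices.

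Known upstream and downstream genes of Cdkn2b were read from lists (counts are limma calls of genes tested, to be read against 2.12% higher and 1.34% lower over all genes). Counts at an unadjusted p under 0.05 are to be read against 698 of 6324 genes. Of 27 TGF-beta target genes, 15 passed as higher and 0 as lower. Median differences were 0.35 in Heart1 and 0.79 in Heart2 (0.01 and 0.02 over all genes). Of the 27, 17 lay above 0 in both libraries and 0 below, against 29.5% and 25.5% over all genes. Cilp (0.01 and 2.59) and Comp (0.07 and 3.52) passed but were nearly level in Heart1. Timp1 (-1.24 and 1.64) and Tnc (-1.2 and 1.13) ran in opposite directions and did not pass. Ctgf, a matricellular gene, was at 1750 against 1190 CPM in Heart1 and at 1420 against 585 CPM in Heart2 (0.91 ± 0.13, adjusted p = 0.000249). Postn, which encodes periostin, was at 2130 against 1610 and at 1850 against 215 CPM (adjusted p = 0.00234), so most of its difference lay in Heart2. Bhlhe40 differed by 1.12 and 0.52, Tgfbi by 0.90 and 0.58 and Acta2 by 1.34 and 0.32. Postn, Ltbp2, Cilp, Comp, Timp1 and Fn1 of this list are leading genes of sub-cluster 1. Of the matched Heart1 cells, 19 of 60 with Cdkn2b RNA against 48 of 120 without lay in sub-cluster 1. In Heart2 it held the larger share of cells with Cdkn2b RNA, 11 of 55 against 33 of 275. Leaving out sub-cluster 1 was not tested. Without sub-cluster 5, 0 of 27 passed in limma, the only tool run, against 7 of 6257 over all genes. At an unadjusted p under 0.05 there were 18 of 27, against 354 of 6257, and the medians were 0.16 and 0.77. Matched within sub-clusters, 13 of 27 passed as higher, against 149 of 6311 over all genes in either direction. That fit had infinite prior degrees of freedom, so each gene got the spread of the trend and none of its own. Its calls are therefore not like those of the main fit. With matching within sub-clusters, 20 of 27 lay above 0 in both libraries, against 29.0% over all genes. Without the Heart2 cells richest in Cdkn2b, 8 of 27 passed, against 121 of 6325 over all genes. Of 24 ligands, receptors and SMADs of the pathway, only the inhibitory Smad7 passed (0.67 ± 0.18, adjusted p = 0.0396). Tgfb1 had differences of 0.14 and 1.12 (adjusted p = 0.0744).

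None of 14 tested regulators of Cdkn2b and none of 11 Polycomb and Trithorax genes passed in the limma fit. At an unadjusted p under 0.05 there were 4 and 0 genes, against 698 of 6324 over all genes. Foxo1 was at 63.8 against 33.3 CPM in Heart1 and at 56.5 against 49.9 CPM in Heart2 (adjusted p = 0.321), Gata4 at 71.0 against 42.1 and at 61.5 against 42.1 CPM (0.12), and Sp1 at 42.1 against 58.4 and at 79.8 against 72.0 CPM (0.906). Of 11 tested genes of the CDK4/6 and retinoblastoma pathway, Ccnd2, which encodes cyclin D2, was higher, at 204 against 122 and at 161 against 74.0 CPM (0.86 ± 0.15, adjusted p = 0.00161). Cdk4 had differences of 0.32 and -0.02 and Cdk6 of 0.21 and -0.42. Of 22 proliferation genes, 4 were high enough to test, and Tubb5, a tubulin gene, passed (adjusted p = 0.0216). Of 13 p53 targets, 0 passed in limma and 1 had an unadjusted p under 0.05, with Mdm2 at 31.3 against 23.9 and at 41.6 against 28.5 CPM (adjusted p = 0.612). The medians of these targets were 0.19 in Heart1 and 0.38 in Heart2. Of the 13, 8 lay above 0 in both libraries and 0 below, against 29.5% and 25.5% over all genes.

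Secretory genes linked to senescence were mixed, with 3 of 23 passing as higher (Timp3, Spp1, Gas6) and 1 as lower (Ccl11). Timp3, an inhibitor of metalloproteinases, was at 1900 against 853 CPM in Heart1 and at 1060 against 619 CPM in Heart2 (0.95 ± 0.12, adjusted p = 4.25e-05). Spp1, which encodes osteopontin, had the greatest limma difference of this list, but 277 of its 290 UMIs in Heart2 cells with Cdkn2b RNA and 248 of 351 in Heart1 came from 1 cell each. Cxcl1 differed by 0.33 and -1.10 (adjusted p = 0.643), Cxcl12 by -0.32 and 0.24 (0.968), Ccl2 by -1.22 and 0.92 (0.937) and Ccl7 by -2.04 and 0.13 (0.0956). Il6, Il1b, Cxcl2, Cxcl5 and Ccl8 were too low to test. Of 23 genes induced by tissue dissociation, Ier2, Ier3 and Nr4a1 were higher, and the list median was 0.62 in Heart1 and -0.10 in Heart2.

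Wnt and BMP modulators included 5 of 12 higher: beside Wif1, Dkk3 (0.90 and 2.00), Rspo3 (0.94 and 1.28), Bmp2 (1.22 and 1.0) and Bambi (0.88 and 0.77). Of markers used for valve fibroblasts, Wif1, Coch, Dkk3 and Prg4 of 5 tested passed, but Coch was seen almost only in Heart1 (197 against 11 UMIs; 0 against 1 in Heart2). Without sub-cluster 5, 0 of 10 tested Wnt and BMP modulators and 0 of 3 valve markers passed in limma, against 7 of 6257 over all genes. At an unadjusted p under 0.05 there were 2 of each, against 354 of 6257, and Wif1 was then too low to test. Of 5 matrifibrocyte-like markers 3 passed as higher, and the larger differences were those of Heart2: Comp was at 743 against 55.7 CPM there and at 806 against 766 CPM in Heart1, and Thbs4 at 1400 against 3.06 CPM in Heart2 and at 374 against 601 CPM in Heart1. Timp1 ran in opposite directions, -1.24 in Heart1 and 1.64 in Heart2. The matrix list as a whole had 7 higher and 3 lower of 45.

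Some genes of the adventitial-type, Hsd11b1 and Ccl11, and interferon lists were lower, though most listed genes of the first and last did not pass. Adventitial-type markers had 4 of 10 lower and 0 higher (Pi16, Ly6c1, Cd248, Cd55), with medians of -0.65 and -0.60, and the Hsd11b1 and Ccl11 list had 5 of 8 lower, with medians of -0.63 and -0.45. Cxcl14, a chemokine gene of the second list, was at 439 against 1200 CPM in Heart1 and at 1220 against 2390 CPM in Heart2 (-1.20 ± 0.12, adjusted p = 6.65e-06). Pi16 was at 1200 against 1940 and at 1020 against 2010 CPM (adjusted p = 8.65e-05). Lpl, which encodes lipoprotein lipase, differed by -1.08 and -0.99. Of 11 interferon genes, Isg15, Ifi27l2a and Ifi204 were lower. Without sub-cluster 5, 0 genes of these lists passed in limma, against 7 of 6257 over all genes. An unadjusted p under 0.05 was found for 4 of 10 adventitial-type genes, against 354 of 6257. It was found for 5 of 8 genes of the Hsd11b1 and Ccl11 list and 3 of 10 interferon genes. The medians were then -0.36 and -0.34 for the adventitial-type and -0.40 and -0.33 for the Hsd11b1 and Ccl11 list.

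Markers of other cells were low on both sides, and their part in the results was not tested. Summed macrophage markers were at 7.22 CPM with and 79.8 CPM without Cdkn2b RNA in Heart1, and at 18.3 and 21.1 CPM in Heart2. Summed endothelial markers ranged from 22.1 to 43.3 CPM, with Cldn5, Egfl7 and Tie1 at 0, and cardiomyocyte markers from 21.6 to 61.3 CPM. Mural markers were at 208 against 101 CPM in Heart1, where Abcc9 led, and at 51.5 against 59.1 CPM in Heart2. Summed Schwann cell markers were at 155 against 70.4 and at 103 against 37.4 CPM, of which S100b, a leading gene of sub-cluster 5, made up most with Cdkn2b RNA (130 and 64.8 CPM). Of 13 mitochondrial transcripts, 0 passed in limma and 0 had an unadjusted p under 0.05, with medians of -0.08 and -0.06. Doublets were predicted for 2 of the 1145 fibroblasts and for none with Cdkn2b RNA.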

How the data were processed

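Per the labels' protocols, sorted cells were loaded on the 10x Chromium Controller with v3 3′ chemistry. Cell Ranger 3.0.2 and mm10 are named in the submitters' processing notes. Other processing steps of the authors are not given in the sources. Cell values were deposited as natural log values, ln(1 + UMIs per 10000 UMIs of the cell), a unit read from the values. UMI counts were recovered from the steps of each cell (all 4459440 values whole within 1e-06). Columns of cells not used numbered 0.

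Each cell with a Cdkn2b UMI was matched without replacement, deepest first, to the nearest cells without within 1.25-fold of its UMIs, with 2 matches a cell in Heart1 and 5 in Heart2. The number of matches was the largest up to 5 that fully matched at least 90% of cells with medians within 5%. UMIs summed per library and status (831340, 1591342, 601547 and 2944323 UMIs) gave CPM, and genes with a mean of at least 20 CPM were kept. Cdkn2b and the 8 class genes (9 in all) were left out of counts. limma 3.58.1 (R 4.3.3) was run on log2(CPM + 10) with a library block and a mean-variance trend (1 residual and 18.96 prior degrees of freedom). An adjusted p under 0.05 is called. On 4 simulated sums (6218 genes tested), limma called 77% of 100 genes changed 2-fold, 100% of 100 changed 4-fold and 8 unchanged genes. The 2-fold rule in both libraries, without the minimum share of cells, found 14% and 98% of them and 0 unchanged genes. The simulation drew sums and not cells, so it does not cover UMIs concentrated in 1 cell. Sub-clusters were made with scanpy 1.11.5 and igraph 0.11.9 (1500 variable genes, 20 components, 10 neighbours, resolution 0.5), and doublets were predicted with scrublet. Gene coordinates were taken from GENCODE, on GRCm38.

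Named genes are the 6 other inhibitor genes, up to 15 genes in each direction at least 2-fold apart in both libraries, such genes of the lists, and the highest markers of other cells. Other genes named were chosen after their values were seen. The members, the 31 gene lists and the tests were chosen with earlier results of these data known. Alternatives covered matching, thinning, cell choice, scaling, pseudocount, filters and the fit.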

Additional observations from a re-analysis of the deposited data

How the results depend on the processing

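The cause of the changes below was not tested. Genes at least 2-fold higher in both libraries numbered 14 in the main comparison, and 23 when cells were thinned to 5000 UMIs, 62 at 3000 UMIs, 7 when matched within sub-clusters, 3 without Wif1-positive cells, 4 without sub-cluster 5 and 7 with a filter at 50 CPM. Of the 14 genes themselves, 7 were still called at 5000 UMIs and 5 at 3000 UMIs. At 5000 UMIs Wif1 (2.37 and 2.78) and Id4 (1.79 and 1.18) missed the minimum share of cells with a UMI. In 1 library alone the genes called numbered 62 to 81. Genes at least 2-fold lower numbered 2, and 15 without matching, 18 at 5000 UMIs, 78 at 3000 UMIs, 4 with a pseudocount of 5 and 0 with a pseudocount of 20 CPM. They numbered 1 with means of per-cell CPM, with stricter class limits (fibroblast mean at least 2, macrophage mean under 0.5), without Wif1-positive cells, without the 2 Heart2 cells richest in Cdkn2b and with a filter at 50 CPM, and 24 to 32 in 1 library alone. Thinning leaves few cells with Cdkn2b RNA (29 and 29 at 5000 UMIs, 26 and 15 at 3000), so counting error is larger there. Cells that lost every Cdkn2b UMI by thinning were counted as cells without, and no cells were matched. The sides therefore hold other cells than in the main comparison.

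The limma counts moved more. Higher calls (134) became 20 at 5000 UMIs, 12 at 3000 UMIs, 56 with means of per-cell CPM, 86 without predicted doublets, 12 without Wif1-positive cells, 5 without sub-cluster 5, 75 without the 2 Heart2 cells, 74 with median ratio scaling, 223 with no filter, 43 with no trend, and 0 with a filter at 50 CPM or no replicate block. Lower calls (85) became 133 without matching, 25 at 5000 and 8 at 3000 UMIs, 46 within sub-clusters, 27 with means of per-cell CPM, 51 with stricter class limits, 49 without doublets, 5 without Wif1-positive cells, 2 without sub-cluster 5, 46 without the 2 Heart2 cells, 50 with median ratio scaling, 50 and 55 with pseudocounts of 5 and 20 CPM, 52 with a filter at 10 CPM, 15 with no trend, and 0 with a filter at 50 CPM or no replicate block. The fit within sub-clusters had infinite prior degrees of freedom, so its genes had no spread of their own. Counts with a library left out have no residual degrees of freedom and were not run. Across 21 alternatives Cdkn1a was called in 18 and Cdkn2a in 15, and Wif1 in 17 of the 19 that tested it, with adjusted p up to 0.999.

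Shares of fibroblasts with Cdkn2b RNA were 12.6% and 14.5% in Heart1, and 1.60% and 3.38% in Heart2, at 3000 and 5000 UMIs. Limma log2 differences changed sign for Cdkn2c (0.021 with 1 matched cell, 0.015 at 5000 and 0.026 at 3000 UMIs, 0.14 within sub-clusters, 0.059 without Wif1-positive cells and 0.06 without sub-cluster 5), Cdkn2d (0.19 in Heart1 alone, -0.53 in Heart2 alone), Spp1 (-1.17 at 3000 UMIs), C4b (-0.23 without Wif1-positive cells, -0.089 without sub-cluster 5) and 1500015O10Rik (-0.31 without Wif1-positive cells).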

Other observations

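Genes outside the lists and the 2-fold rule, picked after their values were seen because their limma p-values were among the lowest, add to the picture of the fibroblasts with Cdkn2b RNA. Lower were Dpep1, which encodes a dipeptidase, at 333 against 799 CPM in Heart1 and at 1001 against 1784 CPM in Heart2 (limma log2 difference -1.03 ± 0.12), and Clec3b, which encodes tetranectin, at 312 against 640 and at 682 against 1214 CPM (-0.92 ± 0.12). Adamts5, a metalloproteinase gene that acts on proteoglycans, differed by -0.84 and -1.32, the complement gene C3 by -0.74 and -0.72 and the matricellular gene Smoc2 by -0.96 and -0.63. Higher were Csrp2, which encodes a LIM-domain protein, at 808 against 317 and at 209.5 against 122 CPM (1.03 ± 0.14), and Bok, a gene of the BCL2 family, at 379 against 165 and at 138 against 66.9 CPM (1.05 ± 0.14). Having been picked for their p-values, these genes get no p here.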
